A study of Mus musculus with 6 samples.

Results

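Pericentral hepatocyte genes are transcribed mainly in the hepatocytes next to the central vein of the liver lobule. The 10 genes described here are Glul, Oat, Slc1a2, Rhbg, Slc13a3, Gulo, Cyp1a2, Cyp2e1, Lgr5 and Axin2. They were taken by symbol from a table of 15953 genes, and all 10 were found and passed the low-count filter that left 12033 genes for testing. The 10 were picked with earlier results from the same libraries known, so counts over them describe the choice and are not independent evidence of a direction. RNA sequencing was done on 6 mouse livers, 3 labelled wild type and 3 labelled Cgref1 KO, all of strain C57BL/6, with no other allele, agent, time, sex or age given; how Cgref1 was deleted is not stated in the labels. The comparison asked how hepatic gene expression differs when Cgref1, the gene of a secreted calcium-binding protein, is removed. The labels call the samples of a group biological replicates and say no more about their origin, so the p-values measure no more than the spread among these livers, which may be technical.

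Blood flows through a liver lobule from the portal tract to the central vein, and hepatocytes along this path carry out different work. Wnt proteins from endothelial cells of the central vein activate beta-catenin in the nearest hepatocytes, which turn on glutamine synthesis and many cytochrome P450 genes. The layer of hepatocytes nearest the vein takes up the ammonium that periportal urea synthesis has left in the blood and fixes it in glutamine.

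Library totals lay between 17627734 and 18366443 estimated counts, and 14260 to 14628 genes had a count above 0 in a library. Cgref1 itself was counted 7, 7 and 19 times in wild type and 7, 12 and 10 times in the libraries labelled Cgref1 KO. Its reads did not disappear under that label. It failed the low-count filter and was not tested. A full loss of its reads was thus not seen, and with wild type counts this low a partial loss could not be measured. The genotype therefore rests on the labels, and the second group is called knockout-labelled throughout. Over all 12033 genes, edgeR called 1 gene, none of the 10 among them, at an adjusted p under 0.05. The labels name hepatocytes as the cell type and liver as the tissue. The hepatocyte list of 15 genes summed to 97150 to 127600 CPM, that is, counts scaled by the TMM-adjusted library size, in the 6 libraries. The Kupffer cell list of 14 genes summed to 449.2 to 551.3 CPM, so RNA of other liver cells was present in each library. As these are bulk samples, a change in the number of pericentral cells and a change in RNA per cell cannot be told apart.

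The 10 genes covered a wide range of levels in liver, compared here per transcript length in TPM, the authors' unit of transcripts scaled to a fixed sum in each library. Cyp2e1, which encodes an ethanol- and drug-oxidising P450, stood highest, at 6155 ± 838 TPM in wild type and 7097 ± 778 TPM in knockout-labelled libraries (SD, n = 3 here and for each level given as mean ± SD). Cyp1a2, Oat and Glul followed at 538.6 ± 68.4, 470.9 ± 91.1 and 395.0 ± 44.8 TPM in wild type. In both groups Cyp1a2 overlapped with Oat and Oat with Glul, so these neighbours were not resolved, while Cyp1a2 stood above Glul in every library. Gulo stood below them at 219.3 ± 18.3 TPM and Slc1a2 at 21.3 ± 4.26 TPM, each apart from its neighbours in every library. Rhbg at 5.42 ± 1.39 TPM and Slc13a3 at 4.52 ± 0.995 TPM overlapped in wild type. The same pair was separate in the knockout-labelled libraries, at 8.78 to 15.11 and 5.41 to 8.65 TPM. Lgr5 at 1.62 ± 0.384 TPM and Axin2 at 1.17 ± 0.250 TPM were the lowest, with 50 to 112 counts per library. The order of the 10 means was the same in both groups.

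**Figure D1:**
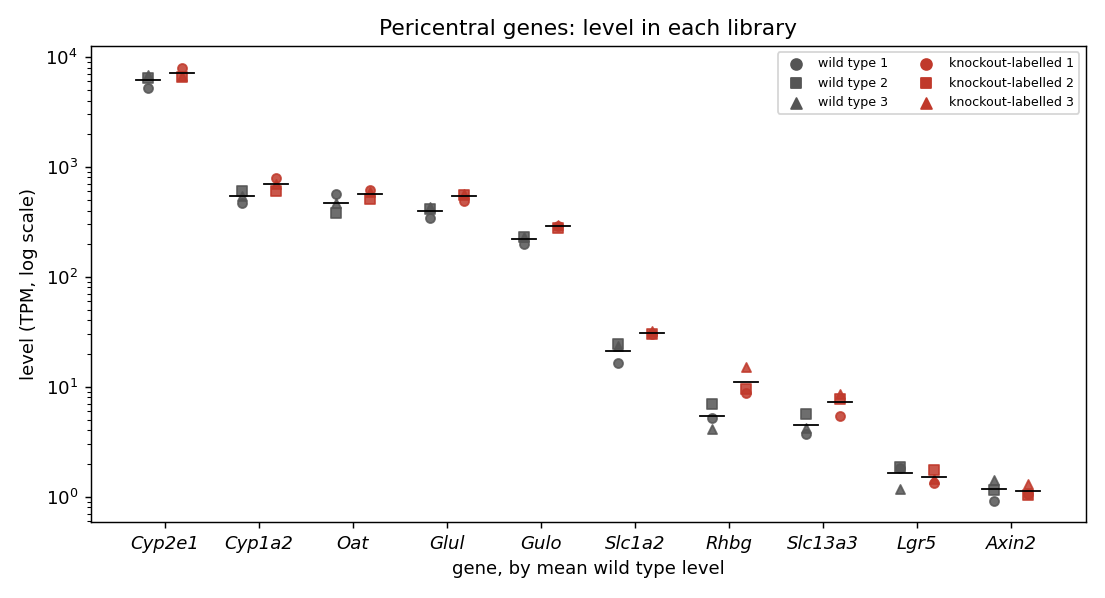
Level of each of the 10 genes in TPM on a log axis, one point per library, with grey points for wild type, red points for knockout-labelled libraries, a marker shape for each replicate number and a bar at each group mean. Levels run from 6155 TPM for Cyp2e1 to 1.17 TPM for Axin2 in wild type, and the 10 means keep their order in the knockout-labelled group.

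The 8 genes other than Lgr5 and Axin2 were higher in all 3 knockout-labelled libraries than in any wild type library on the CPM scale, namely Glul, Oat, Slc1a2, Rhbg, Slc13a3, Gulo, Cyp1a2 and Cyp2e1. Their fitted ratios of knockout-labelled to wild type ran from 1.27-fold for Cyp2e1 to 2.24-fold for Rhbg. Lgr5 and Axin2, grouped here under the role of Wnt target, had fitted ratios of 1.03-fold each, and their groups overlapped. The name of this role does not set the other 8 apart from Wnt signalling. Of all genes tested, 6.19% did not overlap with higher knockout-labelled values, against 8 of the 10. At an unadjusted p under 0.05, edgeR gave 8 of the 10 as higher and 0 as lower, where 2.95% of all genes were higher and 2.2% lower. Without wild type replicates 1 and 3, the libraries with the most counts of intestinal genes, 4 of the 10 were higher at that p, where 1.25% of all genes were. That fit holds 1 wild type library and takes its spread from the knockout-labelled group alone, on the assumption that wild type varies alike, so its p-values are no support for a difference. None of the 10 passed edgeR's threshold of an adjusted p of 0.05 over all genes (0 of 10, background 0.00831%). The median log2 fold change was 0.52 over the 10 and -0.0022 over all 12033 genes.

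The count of separate groups depended on the scale. In TPM, to which no TMM factors are applied, 4 of the 10 did not overlap (Glul, Slc1a2, Rhbg and Gulo), where 1.44% of all genes did not overlap with higher values and 15.3% with lower ones. With counts scaled by library totals alone, 6 of the 10 did not overlap, with a background of 2.28%. DESeq2 on the same counts called 3 of the 10 as higher, namely Glul, Rhbg and Gulo, against 0.133% of all genes. Run without the low-count filter, it called Slc1a2 as well (4 of the 10, background 0.156%), whose adjusted p was 0.0488 there and 0.0555 with the filter. The authors' deposited table also gave these 3 a q-value under 0.05, at 0.00830 for Glul, 0.0169 for Rhbg and 0.00137 for Gulo, against 0.107% of its genes.

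**Figure D2:**
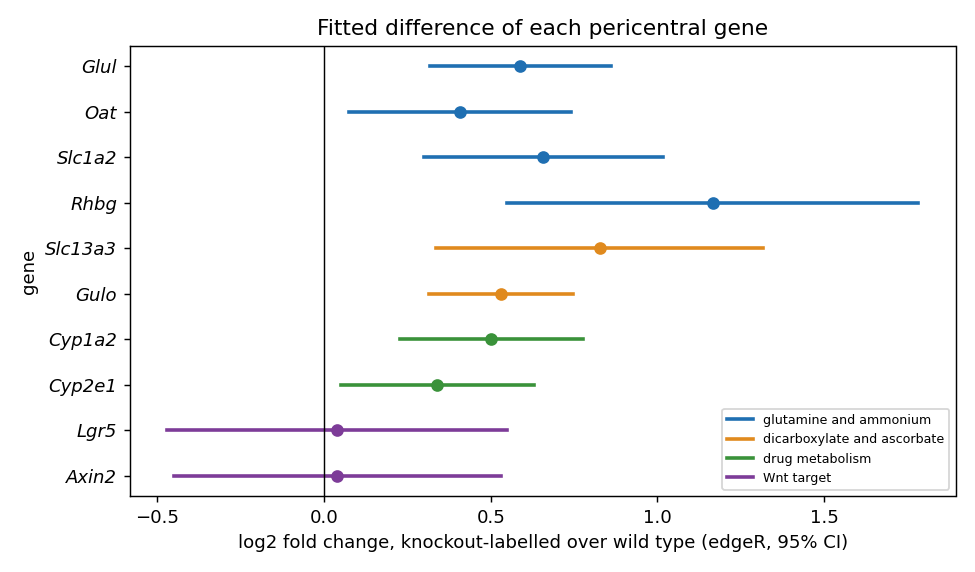
Fitted log2 fold change of each gene, knockout-labelled over wild type, from edgeR's quasi-likelihood fit (points) with the 95% confidence interval (lines), coloured by role. The intervals of 8 genes lie above 0, from 0.34 for Cyp2e1 to 1.17 for Rhbg, and those of Lgr5 and Axin2 span 0.

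Among the genes of glutamine and ammonium handling, Glul encodes glutamine synthetase, which joins ammonium to glutamate, and lies on chromosome 1 from 153899929 to 153909723 (GRCm38, plus strand). It was measured at 657.9, 768.9 and 789.8 CPM in wild type and at 974.0, 1195 and 1164 CPM in knockout-labelled libraries. The groups were separate, with the lowest knockout-labelled value 1.23 times the highest wild type one. The fitted log2 fold change was 0.59 (SE 0.12, 95% confidence interval 0.32 to 0.86), with an edgeR adjusted p of 0.640. DESeq2 gave Glul an adjusted p of 0.00835, and the adjusted p lay between 0.00677 and 0.9999 over 20 alternative settings.

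Rhbg encodes an ammonium transporter of the hepatocyte membrane and lies on chromosome 3 from 88242874 to 88254740 on the minus strand. Its values were 6.24, 8.08 and 4.80 CPM in wild type and 10.4, 12.7 and 19.7 CPM in knockout-labelled libraries, or 88 to 152 against 179 to 358 counts. The groups did not overlap, and knockout-labelled replicate 3 stood above the other two of its group. Rhbg had the largest fitted difference of the 10 genes and the widest interval, a log2 fold change of 1.17 (SE 0.27, interval 0.55 to 1.78, edgeR adjusted p 0.739). It was 0.86 to 1.38 when each library was left out in turn.

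Slc1a2, which encodes a glutamate transporter that brings in the substrate of glutamine synthetase, lies on chromosome 2 from 102658013 to 102809823 in the deposited table. It had 69.8, 110.8 and 104.4 CPM in wild type and 143.8, 152.7 and 153.1 CPM in knockout-labelled libraries. The knockout-labelled values were close to each other, while wild type replicate 1 lay well below the other wild type libraries. The log2 fold change was 0.66 (SE 0.16, interval 0.30 to 1.02, edgeR adjusted p 0.739), and it was 0.42 without wild type replicates 1 and 3.

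Oat encodes ornithine aminotransferase, a mitochondrial enzyme that turns ornithine towards glutamate, and lies on chromosome 7 from 132557475 to 132576398 on the minus strand. Its values were 809.8, 532.2 and 654.3 CPM in wild type and 906.5, 817.8 and 922.7 CPM in knockout-labelled libraries. Wild type replicate 1 was almost as high as knockout-labelled replicate 2, with a ratio of 1.01 between them, and in TPM the groups overlapped. The log2 fold change was 0.41 (SE 0.15, interval 0.07 to 0.74, edgeR adjusted p 0.918). It was 0.72 without wild type replicates 1 and 3. Oat and Lgr5 were the 2 genes for which wild type replicate 1 stood highest in its group.

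Slc13a3 encodes a sodium-coupled carrier of dicarboxylates such as succinate and lies on chromosome 2 from 165405295 to 165473197. Its values were 8.28, 12.1 and 8.95 CPM in wild type and 12.4, 19.1 and 20.6 CPM in knockout-labelled libraries. Knockout-labelled replicate 1 stood just above wild type replicate 2, at 1.02 times its value, and the groups overlapped in TPM. The log2 fold change was 0.83 (SE 0.22, interval 0.34 to 1.32, edgeR adjusted p 0.798), and 0.51 without wild type replicates 1 and 3.

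Gulo encodes gulonolactone oxidase, the last enzyme of vitamin C synthesis in mice, and lies on chromosome 14 from 65986786 to 66009254 on the minus strand. It was measured at 301.1, 337.5 and 339.5 CPM in wild type and at 457.5, 469.9 and 485.8 CPM in knockout-labelled libraries. The spread within a group was small, and the lowest knockout-labelled value was 1.35 times the highest wild type one, the widest gap among the 10 genes. The log2 fold change was 0.53 (SE 0.10, interval 0.32 to 0.75), with an edgeR adjusted p of 0.341. DESeq2 gave 0.00182, and the adjusted p over 20 alternative settings lay between 0.00111 and 0.9999.

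Of the drug-metabolism genes, Cyp1a2 encodes the P450 that oxidises caffeine and aromatic amines and lies on chromosome 9 from 57676937 to 57683655 on the minus strand. It had 588.0, 738.1 and 649.2 CPM in wild type and 1026, 838.9 and 931.6 CPM in knockout-labelled libraries. The groups were separate in CPM and overlapped in TPM (470.96 to 607.73 against 599.39 to 794.74). The log2 fold change was 0.50 (SE 0.12, interval 0.23 to 0.78, edgeR adjusted p 0.739), and 0.32 without wild type replicates 1 and 3.

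Cyp2e1 lies on chromosome 7 from 140763832 to 140774981 on the plus strand. Its values were 5924, 7164 and 7488 CPM in wild type and 9402, 8367 and 8281 CPM in knockout-labelled libraries. Knockout-labelled replicate 1 was the highest library for both P450 genes, whereas for Glul, Slc1a2, Rhbg, Slc13a3 and Gulo it was the lowest of its group. The log2 fold change was 0.34 (SE 0.13, interval 0.05 to 0.63, edgeR adjusted p 0.918), and limma on log2(TPM + 1) gave 0.21.

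Lgr5 encodes the R-spondin receptor that strengthens Wnt signalling, and Axin2 a scaffold of the beta-catenin destruction complex that Wnt signalling itself induces. Lgr5, on chromosome 10 from 115450314 to 115587780, had 6.02, 5.95 and 3.76 CPM in wild type and 4.55, 6.45 and 5.18 CPM in knockout-labelled libraries. The highest and the lowest values of the groups crossed, with wild type replicate 3 lowest of all. Its log2 fold change was 0.04 (SE 0.23, interval -0.47 to 0.55, edgeR adjusted p 0.994), and -0.04 with library totals as the scaling. Axin2, on chromosome 11 from 108917828 to 108950783, had 2.76, 3.40 and 3.98 CPM in wild type and 3.15, 3.25 and 4.02 CPM in knockout-labelled libraries. These values covered almost the same range in both groups. Its log2 fold change was 0.04 (SE 0.22, interval -0.45 to 0.53, edgeR adjusted p 0.994), and -0.04 with library totals. The intervals of Lgr5 and Axin2 reach ratios of 1.46-fold and 1.44-fold, so at this depth a difference of the size fitted for Cyp1a2, 1.42-fold, lies within both.

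Compared with each other over the libraries, the genes did not all share the same highest and lowest library. Each value was set against the wild type mean of its gene on the log2 scale. Wild type replicate 1 was the lowest of all 6 libraries for 7 of the 10 genes, from -0.11 for Gulo to -0.42 for Slc1a2, and stood at 0.30 for Oat and 0.23 for Lgr5. Knockout-labelled replicate 3 was the highest library for 6 of the 10 genes, with 1.66 for Rhbg and 1.09 for Slc13a3. Knockout-labelled replicate 1 was highest for the P450 genes Cyp1a2 (0.65) and Cyp2e1 (0.46).

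**Figure D3:**
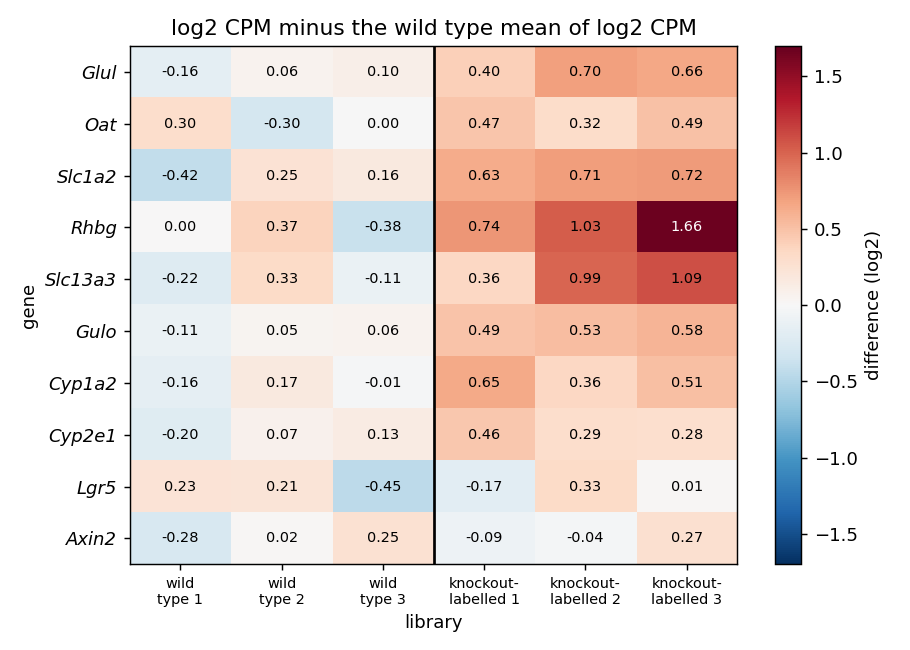
Each cell gives the log2 CPM of a gene in a library minus the mean of its log2 CPM over the 3 wild type libraries, with red above and blue below that mean. The upper 8 genes are at 0.28 or more in every knockout-labelled library, while Lgr5 and Axin2 have values on both sides of 0 in both groups.

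In all, 6 ratios between genes were computed within each library, in TPM, which frees them from the scaling between libraries. Glul over Axin2 was 373.8, 357.0 and 300.8 for wild type, against 465.3, 541.7 and 435.3 for the other group, with no overlap and a mean log2 difference of 0.48. Rhbg over Glul also did not overlap, at 0.0151, 0.0167 and 0.00974 for wild type, against 0.0178, 0.0171 and 0.0267 for the other group, a log2 difference of 0.58. The lowest knockout-labelled value of this ratio, 0.0171, was close to the highest wild type one, 0.0167. As the ratios were chosen after the data were seen, it is no separate evidence that Rhbg differed by more than Glul. The groups overlapped for the other 4 ratios. Glul over Cyp2e1 had a log2 difference of 0.24, Cyp1a2 over Cyp2e1 one of 0.16, Slc1a2 over Glul one of 0.10 and Oat over Glul one of -0.16. By a two-sided exact permutation test, 3 libraries against 3 cannot give less than p = 0.1, which was reached by the first 2 ratios (adjusted p 0.3 over the 6 ratios). The exact p of the other 4 ratios ran from 0.2 to 0.6.

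A longer list of pericentral genes was evenly split. Of 24 further pericentral genes, all tested, 12 had positive and 12 had negative log2 values, and their median was 0.0031, where 49.5% of all genes tested were positive. None was called by edgeR (0 of 24). At an unadjusted p under 0.05, edgeR gave 2 as higher and 1 as lower, where 2.95% and 2.2% of all genes were. DESeq2 and limma-voom also called 0 genes in this list and in each other list of genes outside the 10. Nr1i3, the gene of the xenobiotic receptor CAR, had 64.9 ± 13.4 and 81.9 ± 4.42 CPM (log2 fold change 0.33, SE 0.15). Cyp2a5, a coumarin-oxidising P450 gene, had 1498 ± 176 and 2022 ± 536 CPM. Cyp2c38, a further P450 gene, differed in the other direction, at 37.9 ± 6.66 and 21.4 ± 6.98 CPM (-0.83, SE 0.25). The most abundant genes of the list, Cyp3a11 and Gstm1, had log2 fold changes of -0.21 and -0.21 with groups that overlapped. Groups were separate with higher values for 3 of the 24, among them Nr1i3 and Lect2, and with lower values for 1, Cyp2c38, where the shares of all genes tested were 6.19% and 4.63%. Lect2 was picked after its values were seen. Cyp2a5 and Cyp2c38 have close paralogs that could share reads, so their values are uncertain.

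Wnt pathway genes were nearly evenly split. Of 27 tested genes 14 were positive and 13 negative (median 0.0039). None was called by edgeR (0 of 27). At an unadjusted p under 0.05 by edgeR, 1 was higher and 0 lower, where 2.95% and 2.2% of all genes were. Notum, which encodes a secreted Wnt deacylase and is itself a Wnt target, had 21.4, 24.1 and 22.7 CPM in wild type and 30.1, 25.3 and 33.8 CPM in knockout-labelled libraries. These groups did not overlap, and the log2 fold change was 0.39 (SE 0.13, edgeR adjusted p 0.903). Sp5, a transcription factor gene induced by Wnt, had 0.62 (SE 0.28) at 1.86 ± 0.416 and 2.87 ± 0.674 CPM, with an overlap. Ccnd1, the cyclin D1 gene, had 0.68 (SE 0.37). Ctnnb1, which encodes beta-catenin, stood at 206.5 ± 13.6 and 201.0 ± 3.67 CPM (-0.04, SE 0.09), and Csnk1a1, a casein kinase gene of the destruction complex, at 99.2 ± 6.84 and 90.2 ± 1.11 CPM. The groups of Csnk1a1 were separate too, with the knockout-labelled values lower. Thus 1 gene of this list was separate in each direction, where 6.19% of all genes were with higher and 4.63% with lower values.

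Other genes of glutamine, proline and ammonium metabolism were tested for 19 of the 23 listed, with 12 positive, 7 negative and a median of 0.17. None was called by edgeR (0 of 19). At an unadjusted p under 0.05 by edgeR, 2 were higher, Slc7a5 and Asns, and 0 lower, where 2.95% and 2.2% of all genes were. Slc7a5, which encodes a carrier that exchanges glutamine for large neutral amino acids, had 2.04, 2.39 and 1.80 CPM in wild type and 3.50, 3.43 and 4.63 CPM in knockout-labelled libraries (log2 fold change 0.89, SE 0.23, edgeR adjusted p 0.754). Its groups were separate. Asns, the asparagine synthetase gene, had 1.88, 1.12 and 2.35 against 1.81, 6.10 and 5.07 CPM, and knockout-labelled replicate 1 fell inside the range of the wild type libraries. Slc38a2, a glutamine carrier gene, had 81.7 ± 20.9 and 104.8 ± 3.91 CPM with no overlap. Its lowest knockout-labelled value was 101.6 CPM and its highest wild type value 100.7 CPM. The main hepatocyte carriers of this list, Slc38a3 and Slc38a4, had log2 fold changes of -0.02 and 0.09. Slc7a8, picked after its values were seen, was the third gene with separate groups. In all, 3 of 19 were separate with higher values, where 6.19% of all genes were.

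Ascorbate and dicarboxylate genes other than Gulo and Slc13a3 were tested for 10 of 12, with 2 positive, 8 negative and a median of -0.11. By edgeR none was called, and none had an unadjusted p under 0.05 (0 of 10 for both). Ugp2, which makes the UDP-glucose from which vitamin C synthesis starts, had 512.3 ± 55.9 and 454.6 ± 35.4 CPM, and Akr1a1, whose enzyme acts in the same route, had 442.7 ± 12.7 and 465.6 ± 16.6 CPM. Among 16 tested regulators and partners of the P450 system, 9 were positive and 7 negative (median 0.02). None of these was called, and none had an unadjusted p under 0.05 (0 of 16 for both). Cyp1b1, at 0.488 ± 0.0528 and 0.817 ± 0.119 CPM, was the single one with separate groups, where 6.19% of all genes were separate with higher values. Cyb5a, the cytochrome b5 gene, had a log2 fold change of 0.01.

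Periportal genes, expressed at the other end of the lobule, were positive for 7 and negative for 15 of 22 tested, with a median of -0.09. None was called by edgeR (0 of 22). At an unadjusted p under 0.05 by edgeR, Apoa4 was higher and Etnppl lower (1 each way), where 2.95% and 2.2% of all genes were. The urea cycle genes Ass1 and Cps1, the most abundant of the list, had log2 fold changes of -0.18 (SE 0.16) and -0.06 (SE 0.12). Etnppl, a phospholyase gene, had 94.2 ± 22.2 and 60.5 ± 15.9 CPM (-0.64, SE 0.23), and Fbp1, the gluconeogenic fructose bisphosphatase gene, had 1019 ± 85.2 and 881.9 ± 35.8 CPM with no overlap. Apoa4, an apolipoprotein gene, went the other way, at 48.6 ± 8.59 and 80.3 ± 17.7 CPM (0.72, SE 0.18), also with no overlap. So 1 of the 22 was separate in each direction, where the shares of all genes tested were 6.19% and 4.63%. The zones were not tested against each other.

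**Figure D4:**
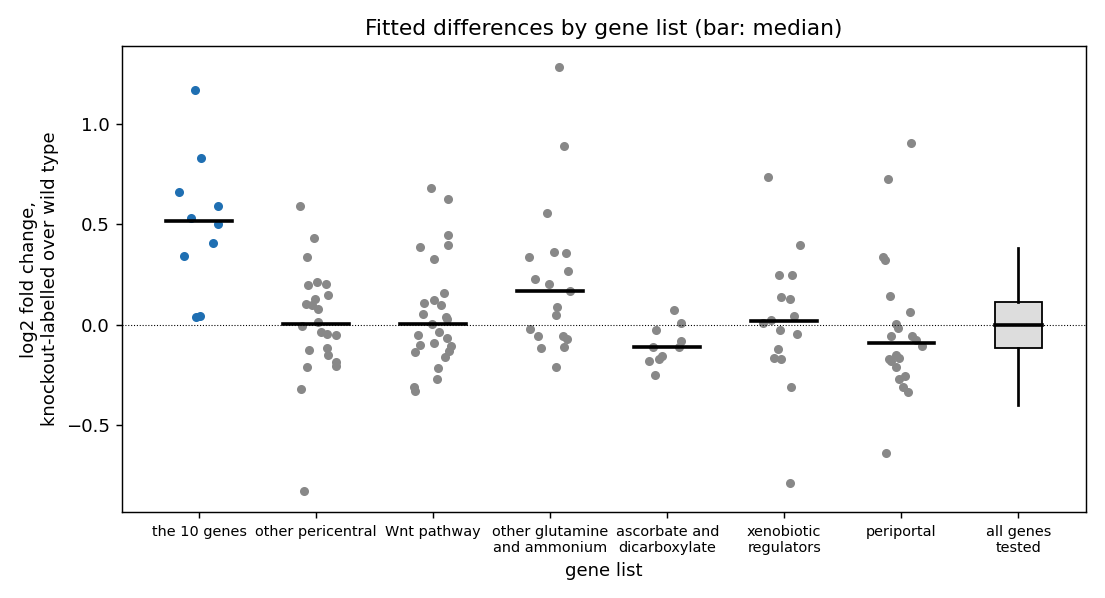
Fitted log2 fold changes of the 10 genes (blue) and of the tested genes of 6 other lists (grey), knockout-labelled over wild type, with a bar at each median. At the right, the box spans the middle 50% and the line the middle 90% of all 12033 genes tested. The medians are 0.52 for the 10 genes and 0.0031 for the 24 other pericentral genes.

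Markers of the central-vein endothelium, the source of the Wnt signal, were low. The list of 8 genes summed to 17.6, 29.8 and 34.3 CPM in wild type and 31.5, 30.6 and 29.4 CPM in knockout-labelled libraries. Wild type replicate 1, the lowest library for 7 of the 10 pericentral genes, was also the lowest here. It was the lowest as well for the sinusoidal endothelial list (384.4 CPM) and the Kupffer cell list (449.2 CPM). For the sum of the 24 further pericentral genes it was the highest, at 24740 CPM against 17740 to 23120 CPM in the other libraries. Of 7 tested genes 6 were positive (median 0.30) and none was called or had an unadjusted p under 0.05 (0 of 7 for both). Wnt9b, a ligand gene, had 0.497, 0.956 and 1.47 CPM in wild type and 1.28, 1.63 and 1.82 CPM in knockout-labelled libraries. Rspo3, which encodes the ligand of Lgr5, had 7.90 ± 2.03 and 6.75 ± 0.499 CPM, and Thbd 2.48 ± 0.546 and 3.36 ± 0.451 CPM. Thbd was the single gene of this list with separate groups, where 6.19% of all genes were separate with higher values. Without wild type replicate 1, the log2 fold changes were 0.51 for Glul, 0.47 for Slc1a2, 0.47 for Gulo, 1.14 for Rhbg and 0.24 for Cyp2e1. The part of these endothelial markers in the result was not tested.

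The other cell type lists differed in their direction. Kupffer cell markers were positive for 13 of 14, with 449.2 to 486.5 CPM in wild type and 497.9 to 551.3 CPM in knockout-labelled libraries. Groups were separate with higher values for 8 of the 14, where 6.19% of all genes were. By edgeR 8 of the 14 were higher at an unadjusted p under 0.05, where 2.95% of all genes were. Stellate markers were positive for 3 of 15, with sums of 421.5 to 555.7 and 369.7 to 433.2 CPM. Of these 15, 1 was higher and 3 were lower at that unadjusted p, where 2.95% and 2.2% of all genes were. Sinusoidal endothelial markers were positive for 7 of 13, with sums of 384.4 to 467.4 and 439.8 to 455.9 CPM, and hepatocyte markers for 11 of 15. Cholangiocyte markers summed to 37.1 to 42.3 and 43.8 to 46.7 CPM and were positive for 3 of 6 tested. Blood genes, positive for 1 of 8 tested, summed to 2110 to 3520 and 1764 to 2759 CPM. None of the genes in these lists passed edgeR's adjusted threshold (0 called), and their part in the values of the pericentral genes was not tested.

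Rhbg and Slc13a3 are also expressed in kidney. The 6 kidney genes in the table gave 15, 26 and 27 counts together in wild type, and 13, 30 and 31 when labelled knockout. Rhbg alone had 113, 152 and 88 counts in wild type, and 179, 219 and 358 when labelled knockout. In the knockout-labelled group both were lowest in replicate 1 and highest in replicate 3. In wild type replicate 3 the kidney sum was the highest of its group and Rhbg the lowest. Of the 6 kidney genes, 1 was tested (Lrp2, log2 fold change 0.19). The part of kidney RNA in Rhbg and Slc13a3 was not tested. Lgr5 and Axin2 are expressed in intestinal crypts too. Of 27 intestinal genes, the 23 that stayed under 5 CPM in every library had sums of 263, 86 and 477 counts for wild type, against 66, 79 and 101 for the knockout-labelled group. Lgr5 was lowest in wild type replicate 3, which held the most of these intestinal counts, whereas Axin2 was highest of the wild type libraries there. The part of intestinal RNA in these values was not tested. Of 7 intestinal genes tested 4 were positive. The 6 pancreatic genes in the table summed to 15.8 to 27.6 and 25.8 to 27.5 CPM, almost all from Cela1, and both that were tested were positive.

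Reads of some of the genes could be shared with neighbours. Exons of Glul overlap those of Teddm2 and Mir8114, exons of Rhbg those of Gm38392, exons of Slc1a2 those of Gm13872 and exons of Axin2 those of Gm11670 in the GENCODE annotation. Teddm2, Gm13872 and Gm11670 are on the opposite strand, and whether reads were counted by strand is unknown from the labels and headers. Mir8114 is on the same strand as Glul and Gm38392 on the same strand as Rhbg, so counting by strand would not part their reads. These values are uncertain to that extent. The deposited table places Slc13a3 and Lgr5 on the plus strand, whereas GENCODE has both on the minus strand.

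The sequences just before the transcription start are shown for 4 of the genes that were separate between the groups. Promoter windows of 250 bases from RefSeq (GRCm38.p6) matched 7 of the 10 genes. The letters CTTTGAA and CTTTGAT, which the beta-catenin partners TCF and LEF recognise, were searched on both strands, and so were the TATA box (TATAAA), the CCAAT box (CCAAT) and the core site of the aryl hydrocarbon receptor (GCGTG). No letters of one motif contain another. Capitals mark matches to the first 4 sequences in the 5′ to 3′ direction of each gene, with a match on the other strand printed as its complement in reverse.
Slc1a2 (chr2:102706188-102706437, plus strand): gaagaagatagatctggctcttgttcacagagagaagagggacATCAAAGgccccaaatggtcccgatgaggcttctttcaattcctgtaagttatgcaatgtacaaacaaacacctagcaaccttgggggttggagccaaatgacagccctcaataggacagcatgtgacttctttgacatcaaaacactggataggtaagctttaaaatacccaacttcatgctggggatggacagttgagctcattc
Cyp1a2 (chr9:57683656-57683905, minus strand): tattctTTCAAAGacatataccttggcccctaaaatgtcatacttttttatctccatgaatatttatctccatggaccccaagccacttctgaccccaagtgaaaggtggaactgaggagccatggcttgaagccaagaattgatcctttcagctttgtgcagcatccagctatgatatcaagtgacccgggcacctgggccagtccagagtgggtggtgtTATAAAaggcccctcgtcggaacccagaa
Cyp2e1 (chr7:140763569-140763818, plus strand): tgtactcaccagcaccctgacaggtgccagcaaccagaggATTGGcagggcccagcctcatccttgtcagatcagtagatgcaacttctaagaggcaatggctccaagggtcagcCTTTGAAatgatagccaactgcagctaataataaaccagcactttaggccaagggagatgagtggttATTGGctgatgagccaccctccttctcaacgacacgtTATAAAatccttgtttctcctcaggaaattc
Glul (chr1:153899679-153899928, plus strand): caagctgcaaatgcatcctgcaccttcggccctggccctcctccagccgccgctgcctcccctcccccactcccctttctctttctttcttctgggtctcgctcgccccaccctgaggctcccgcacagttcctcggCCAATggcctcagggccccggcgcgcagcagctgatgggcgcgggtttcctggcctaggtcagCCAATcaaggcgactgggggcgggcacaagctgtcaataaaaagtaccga

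The TCF and LEF letters were found in 3 of the 7 windows, those of Slc1a2, Cyp1a2 and Cyp2e1, and in 7.48% of 32851 windows of the same length. The matches begin 207, 244 and 135 bases before the start. No match was in the windows of Glul, Oat, Slc13a3 or Axin2, which says only that these letters are not in these 250 bases. The TATA letters were found in 2 of 7, at 29 bases before the start in Cyp1a2 and 31 in Cyp2e1, against 12.4% of all windows. CCAAT was found in 3 of 7, those of Glul, Oat and Cyp2e1, against 33.8%, and GCGTG in 0 of 7 against 28.2%. The windows of Glul and Axin2 were rich in G and C, at 64.8% and 69.2%, against 44.8% in Slc1a2, 47.2% in Cyp1a2 and a median of 52.4% over all windows. Glul and Slc1a2 thus have windows of different composition and different matches, and a link of the windows to their fold changes was not tested. The windows of Slc1a2 and Axin2 lie inside these genes as the deposited table gives them, so they belong to starts further along the gene, and their letters and composition do not describe the sequence before the gene's first base. These matches are a description of letters and no measure of binding.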

How the data were processed

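Messenger RNA of 6 mouse livers was sequenced after reverse transcription and bubble adaptor ligation, per the labels' protocols. HISAT, Bowtie2, RSEM and DESeq2 are named in the submitters' processing notes; versions, order, strand setting and build are not stated there. The chromosome names are those of GRCm38, and all 15803 genes matched by gene ID stood on the same chromosome in GRCm38.p6. The authors deposited expected counts, FPKM and TPM per gene and library, per the file headers, and a log2 fold change with its p-value and q-value by DESeq2, printed only in sentences that name that table. The 6 columns of group means and 9 columns comparing single libraries were not used.

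Expected counts were rounded. edgeR 4.0.16 (R 4.3.3) filterByExpr (minimum count 10) kept 12033 genes; TMM factors were 0.955 to 1.05. Groups were compared by the robust quasi-likelihood test with Benjamini-Hochberg adjustment over all genes (threshold 0.05, 95% intervals). CPM uses TMM-scaled totals; the biological coefficient of variation was 15.8%. The counting error of a gene depends on its own count in a library. The steps were tested on simulated data.

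The members, gene lists and alternatives were chosen with earlier results of these data known. The text names all 10 genes and, of each list, genes from among the 3 with the smallest unadjusted p and the 2 with the highest CPM; others are marked as picked after their values were seen, and a few genes are not reported here. Alternatives were other scalings and filters, DESeq2 1.42.0, limma 3.58.1 (voom; also log2(FPKM + 1), log2(FPKM + 0.1) and log2(TPM + 1)), the replicate block, removal of haemoglobin and Mup genes, and left-out libraries.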

Additional observations from a re-analysis of the deposited data

How the results depend on the processing

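Glul, Oat, Slc1a2, Rhbg, Slc13a3, Gulo, Cyp1a2 and Cyp2e1 had positive log2 fold changes in all 160 combinations of gene and alternative (20 settings, 0.21 to 1.38). The count of the 10 genes called moved from 0 to 3 with DESeq2 (28 genes called in all), to 4 with DESeq2 without the low-count filter (33 in all) and to 2, Glul and Slc1a2, with the replicate block (34 in all). Over all genes the count moved from 1 to 0 with a mean of at least 5 CPM and to 0 without wild type replicates 1 and 3, where 4 of the 10 had an unadjusted p under 0.05 by edgeR in a fit with 1 wild type library and the spread of the knockout-labelled group alone; leaving out single libraries gave 1 to 5, the highest without knockout-labelled replicate 1, and 0 of the 10 each time. Same-numbered libraries deviated together with correlations of 0.28, 0.06 and 0.35, each library correlating best with its own number. The labels state no pairs, so the main fit used none. These correlations do not decide whether the numbers are pairs. Under the block the log2 fold changes were 0.59 for Glul and 0.68 for Slc1a2. Lgr5 turned negative with library totals (-0.0415), limma on log2(FPKM + 1) (-0.0178), log2(FPKM + 0.1) (-0.0241) and log2(TPM + 1) (-0.0522), and without wild type replicates 1 and 3 (-0.15). Axin2 turned negative with library totals (-0.0427) and log2(TPM + 1) (-0.0205), and has no value at a mean of at least 5 CPM. With single libraries left out Lgr5 ran from -0.15 to 0.15 and Axin2 from -0.0912 to 0.17. The log2(TPM + 1) scale moved the median of all genes to -0.11, so Lgr5 and Axin2 lay above that median there. The causes were not tested. DESeq2 without the filter, the overlap counts in TPM and by library totals, the 6 ratios between genes and the limit of 5 CPM on intestinal genes were chosen after seeing the data. For Lgr5 and Axin2, 50 to 112 counts per library limit the precision.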
